A study of Mus musculus with 22 samples.

Results

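Ribosome-bound mRNA of striatal neurons expressing Drd1, a dopamine receptor (D1 neurons), was measured in Fmr1 mutant and wild-type mice and is described here across all expressed genes. The comparison was chosen by assay and genotype: the 5 mutant pulldown libraries (animals 2, 3, 9, 10 and 11) and the 6 wild-type pulldown libraries (animals 1, 4, 12, 13, 14 and 20), which make 11 of the 22 libraries of the series. All 11 animals, controls included, carried Rpl10a, a protein of the large ribosomal subunit, fused to EGFP in Drd1-expressing medium spiny neurons. Antibodies to EGFP pulled the tagged ribosomes with their mRNA out of striatal lysate (the IP), and the remaining 11 libraries hold the lysate itself (the input), taken from the same animals. The genotype labels read WT and FMRP mutant, and the sample titles WT and KO. Allele, strain, age, sex and litter are not given in the sources used here. The replicate is the animal. The title gives the question as how mRNA translation differs in D1 neurons of Fmr1 model mice, and a pulldown measures mRNA on tagged ribosomes, not protein made.

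D1 neurons are projection neurons of the striatum that start its direct pathway and carry, besides Drd1, the dynorphin precursor Pdyn and the tachykinin precursor Tac1. Fmr1 encodes FMRP, an RNA-binding protein found on translating ribosomes, where it is known to bind the coding part of many long neuronal mRNAs, among them those of synaptic scaffolds, channels and chromatin proteins. Loss of FMRP causes fragile X syndrome.

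The markers of the libraries were read first. The 10 D1 markers summed to 2478 to 3147 CPM (counts relative to the scaled library size) in wild-type IP and 2597 to 2811 CPM in mutant IP, against 635 to 1104 CPM over all input libraries. The 6 tested markers of the other projection neuron class, which expresses Drd2, summed to 54.2 to 92.6 CPM in wild-type IP and 55.9 to 90.1 CPM in mutant IP, against 426 to 875 CPM in input. In either genotype D1 markers were thus higher and D2 markers lower in IP than in input, with each assay scaled on its own. Markers of cortical excitatory neurons set 4 animals apart, wild-type 1 and 12 and mutant 3 and 9. Their summed level ran from 13.8 to 317 CPM in wild-type IP and from 13.97 to 301 CPM in mutant IP. No marker of the 12 cell type lists was at 0 in all IP libraries. IP totals ran from 9375611 to 82376192 counts. The first principal component of the IP libraries, with 21.4% of the variance, put those 4 animals on the same side and did not divide the genotypes.

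Few single genes passed the edgeR test, and those that did were lower in the mutant. Of the 55341 genes listed, 14456 had enough reads to test, and 8 of them (0.0553%) passed at an adjusted p of 0.05 by edgeR's quasi-likelihood test with Benjamini-Hochberg adjustment. All 8 fell: Fmr1, Abi3bp, Tns1, Igsf9b, Cdh4, Pkp4, Isg15 and Adamts18. None was higher (0%). Without the 4 animals with cortical markers 8 genes passed as well, 7 lower and 1 higher, and 5 of them were the same: Fmr1, Abi3bp, Tns1, Igsf9b and Pkp4. At an unadjusted p under 0.05 there were 652 lower genes (4.51%) and 450 higher genes (3.11%), 1102 in all. In the whole tissue lysate 3 of 16429 genes passed, all lower (0.0183%). In bulk samples such as these, fewer cells of a type and less RNA per cell cannot be told apart.

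**Figure D1:**
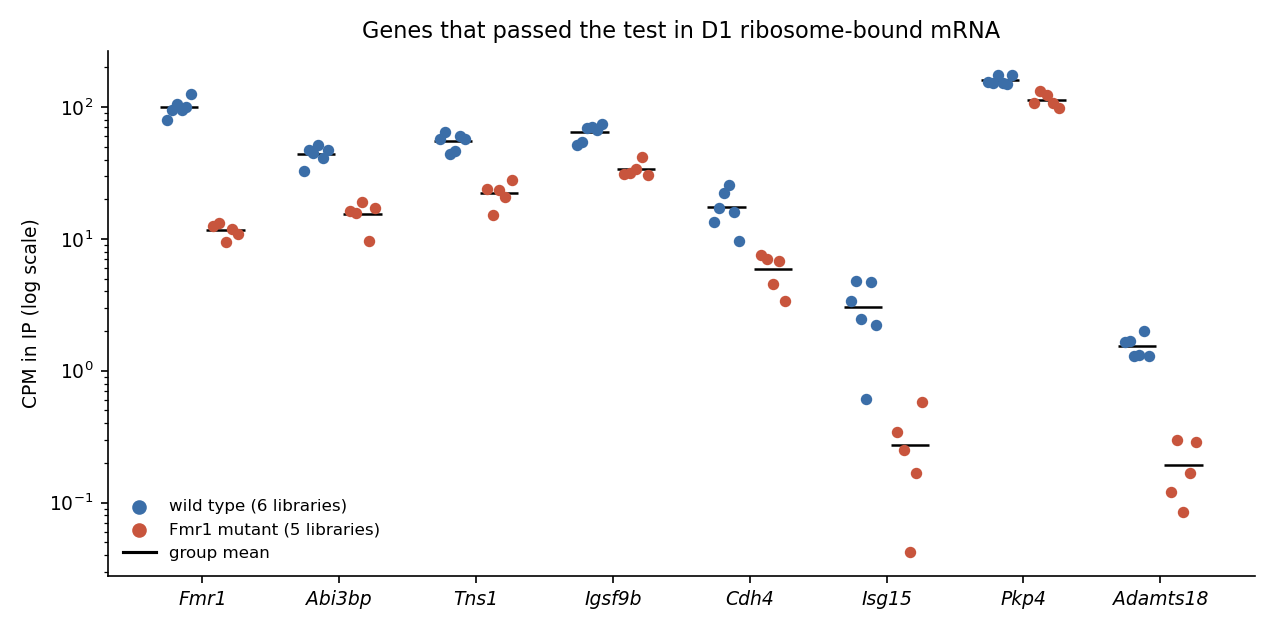
Level of the 8 genes that passed the test, in CPM on a log axis, in each wild-type (blue) and mutant (red) IP library, with the group mean as a bar. In each of these genes the mutant points all lie under the wild-type points, by a wide gap in Fmr1 and a narrow gap in Isg15.

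Fmr1, the gene named in the labels, spans bases 68678541 to 68717963 of chromosome X (GRCm38/mm10). In wild-type IP its level was 79.8 CPM at the lowest, 97.5 at the median and 124.6 at the highest. The mutant libraries 2, 3, 9, 10 and 11 held 12.5, 13.2, 9.44, 11.99 and 10.8 CPM, and all lay far below the wild type, which matches the label of each library. The log2 fold change (mutant over wild type, here and below) was -3.10 ± 0.13 (SE; adjusted p = 2.43e-11, edgeR). Between 150 and 623 reads per mutant pulldown were still counted for Fmr1. In input the fall was -2.28 ± 0.11, and the difference of the IP and input changes, -0.83 ± 0.15, did not pass the edgeR interaction test over 17311 genes (adjusted p = 0.128, the same with the animal as a replicate block). No gene passed that interaction test by edgeR, with or without the block, and 710 had an unadjusted p under 0.05.

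Of the genes near Fmr1, 28 were tested within 5 Mb on chromosome X. None passed the test, and 4 had an unadjusted p under 0.05, of which 3 were higher and 1 lower in the mutant. Pnck, encoding a calcium/calmodulin-dependent kinase, had the smallest p, with a log2 difference of 0.39 ± 0.11 (adjusted p = 0.315). Vma21 and Prrg3 were at 0.31 ± 0.14 and 0.29 ± 0.11, and Slitrk2, which encodes a synaptic adhesion protein, at -0.42 ± 0.19 (adjusted p from 0.575 to 0.631). These 4 were named after their values were seen. Of all 507 tested genes of the chromosome apart from Fmr1, these 28 included, 20 were lower and 24 higher at an unadjusted p under 0.05. Their median log2 difference was 0.02.

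Abi3bp, Tns1 and Igsf9b encode proteins of the cell surface and its attachment to the cytoskeleton. Together with Fmr1 these genes passed in all 19 settings tried, including each of the 11 fits that left out an animal. Abi3bp encodes a protein of the extracellular matrix (chromosome 16, 56477878 to 56690135). Its level in wild-type IP was 32.6 CPM at the lowest, 45.7 at the median and 51.8 at the highest. In mutants 2, 3, 9, 10 and 11 it was 16.2, 15.8, 18.9, 9.56 and 17.2 CPM. Every mutant was below every wild-type animal, and mutant 10 was the lowest. The log2 fold change was -1.50 ± 0.16 (SE; adjusted p = 1.63e-04, edgeR), and in input it was also -1.50, ± 0.14 (adjusted p = 1.45e-05), from 24.5 CPM ± 3.35 (SD, n = 6) to 8.66 ± 1.25 (SD, n = 5). Abi3bp thus fell as far in the lysate as on tagged ribosomes, with a difference of -0.02 ± 0.21 between the changes.

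Tns1 encodes tensin 1, which links integrins at focal adhesions to actin (chromosome 1, 73910231 to 74124449). Wild-type IP held 44.0 CPM at the lowest, 57.7 at the median and 65.2 at the highest. Mutants 2, 3, 9, 10 and 11 held 23.8, 15.3, 23.4, 20.9 and 28.1 CPM. The groups did not overlap, and mutant 3 was the lowest. Its log2 fold change was -1.31 ± 0.14 (SE; adjusted p = 1.63e-04, edgeR) in IP and -0.92 ± 0.14 (adjusted p = 0.0179) in input. Of the 34 tested genes of tensins, integrins and focal adhesion Tns1 alone passed, and 21 were below 0. Tln2, encoding the integrin activator talin 2, stood at 320.1 CPM in wild type against 275.8 in mutants, without overlap, a log2 difference of -0.22 ± 0.07 (adjusted p = 0.428).

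The stretch before the start of Tns1 is printed because this gene fell in both IP and input. The window covers the 250 bases upstream of the RefSeq start (GRCm38.p6, chr1:74124549-74124798, minus strand, 5′ to 3′). Capitals mark the GC box, GGGCGG or its reverse complement, the letters bound by Sp family factors.
Tns1: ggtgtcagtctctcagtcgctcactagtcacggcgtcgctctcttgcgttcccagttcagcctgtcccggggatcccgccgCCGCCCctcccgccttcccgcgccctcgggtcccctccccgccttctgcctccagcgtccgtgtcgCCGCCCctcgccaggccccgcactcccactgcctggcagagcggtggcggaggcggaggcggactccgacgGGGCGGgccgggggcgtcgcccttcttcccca
The window is 74.4% G and C and holds 3 GC box matches. Among the 32851 windows of this length given by RefSeq, 32.7% hold at least 1.

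Igsf9b encodes an immunoglobulin-family adhesion protein of inhibitory synapses (chromosome 9, 27299204 to 27357546). Wild-type IP held 51.4 CPM at the lowest, 68.5 at the median and 74.9 at the highest. Mutants 2, 3, 9, 10 and 11 held 31.1, 31.5, 33.6, 42.0 and 30.6 CPM, below every wild-type library, with mutant 10 above the rest of its group. The log2 fold change was -0.94 ± 0.12 (SE; adjusted p = 0.00103, edgeR). In input it was -0.61 ± 0.13, again without overlap of the groups, but this did not pass (adjusted p = 0.231). Of 17 tested members of the Igsf9 family and inhibitory synapse organizers 13 were below 0, Igsf9b alone passed, and the list median was -0.09.

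Cdh4 and Pkp4 encode proteins of cell junctions. Cdh4 encodes R-cadherin, a calcium-dependent adhesion molecule (chromosome 2, 179442431 to 179899373). Wild-type IP held 9.68 CPM at the lowest, 16.7 at the median and 25.8 at the highest. Mutants 2, 3, 9, 10 and 11 held 7.53, 7.004, 4.57, 6.84 and 3.39 CPM. The groups came close but did not overlap. Its log2 fold change was -1.55 ± 0.25 (SE; adjusted p = 0.0211, edgeR) against -0.70 ± 0.20 (adjusted p = 0.459) in input. Cdh4 passed in 10 of 19 settings and in 4 of the 11 fits without an animal.

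Pkp4 encodes an armadillo-repeat protein of the p120 catenin family (chromosome 2, 59160850 to 59355208) and was the most abundant of the 8. Wild-type IP held 148.4 CPM at the lowest, 153.7 at the median and 176.3 at the highest. Mutants 2, 3, 9, 10 and 11 held 106.6, 131.6, 123.3, 107.3 and 98.2 CPM. The shift was small and the spread smaller still. The log2 fold change was -0.49 ± 0.08 (SE; adjusted p = 0.0318, edgeR), and in input -0.22 ± 0.10 (adjusted p = 0.730) with overlapping groups. Pkp4 passed in 8 of 19 settings and in 1 of the 11 fits without an animal. Of the other tested catenins and plakophilins none passed, and Ctnnb1, encoding beta-catenin, stood at 319.1 CPM in wild type against 297.3 in mutants.

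Isg15 and Adamts18 rest on few reads. Isg15 encodes a ubiquitin-like protein induced by interferon (chromosome 4, 156199424 to 156200818). Wild-type IP held 0.609 CPM at the lowest, 2.93 at the median and 4.77 at the highest, from 18 to 284 reads. Mutants 2, 3, 9, 10 and 11 held 0.341, 0.248, 0.0423, 0.168 and 0.577 CPM, from 17, 5, 1, 5 and 8 reads. The highest mutant and the lowest wild-type library nearly met. Its log2 fold change was -3.50 ± 0.60 (SE; adjusted p = 0.0318, edgeR), and the call held in 3 of the 11 fits without an animal. In input the change was -1.71 ± 0.52 (adjusted p = 0.485) with overlap.

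The window before Isg15 (GRCm38.p6, chr4:156200819-156201068, minus strand, 5′ to 3′) is printed because the gene is known as an interferon target. Capitals mark the core of the interferon-stimulated response element, searched on both strands as GAAA and again GAAA after any 2 bases, with overlapping matches joined.
Isg15: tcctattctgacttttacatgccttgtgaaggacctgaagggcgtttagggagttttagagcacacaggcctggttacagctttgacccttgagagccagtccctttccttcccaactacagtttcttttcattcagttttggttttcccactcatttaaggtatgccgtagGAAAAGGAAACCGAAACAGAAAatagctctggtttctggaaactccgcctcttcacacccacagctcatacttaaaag
It holds 3 overlapping matches and no GC box, and 2.98% of all 32851 windows hold a match. Of 11 tested interferon-stimulated genes 9 were below 0, with a median log2 difference of -0.46, Isg15 alone passed, and 4 in all had an unadjusted p under 0.05. In input 20 of 22 were below 0, with a median of -0.95. Single animals spread widely in these genes, and the IP median ran from -0.65 to -0.25 over the alternatives. Oasl2, an oligoadenylate synthetase-like gene chosen after its values were seen, averaged 2.93 CPM ± 3.15 over wild-type libraries (SD, n = 6) and 0.323 ± 0.399 over mutant libraries (SD, n = 5). Microglia markers, whose part in these values was not tested, summed to 9.76 to 14.7 CPM in wild-type IP and 5.44 to 12.4 CPM in mutant IP. The medians of these sums were 13.5 and 9.69 CPM (exact permutation p = 0.0281, unadjusted, the smallest of the 12 cell type lists). None of the 14 markers was at 0 throughout, and 7 had enough reads to test.

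Adamts18 encodes a secreted metalloprotease (chromosome 8, 113697126 to 113848738). Wild-type IP held 1.28 CPM at the lowest, 1.49 at the median and 2.0 at the highest, from 12 to 139 reads. Mutants 2, 3, 9, 10 and 11 held 0.120, 0.298, 0.0846, 0.168 and 0.289 CPM, from 6, 6, 2, 5 and 4 reads. Here the groups were far apart for their level. The log2 fold change was -3.04 ± 0.53 (SE; adjusted p = 0.0318, edgeR), against -0.81 ± 0.57 (adjusted p = 0.847) in input. The call held in 1 of the 11 fits without an animal. Of 13 tested Adamts proteases 11 were below 0, with a median of -0.25 at a typical level of 0.927 CPM.

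**Figure D2:**
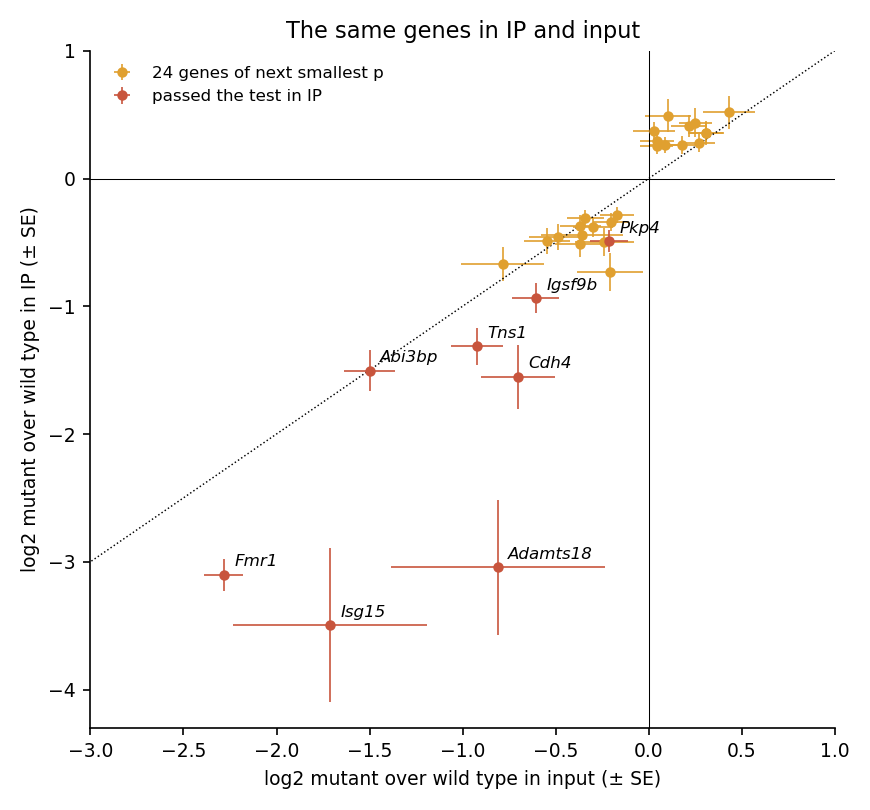
Log2 mutant over wild type in IP (vertical) against input (horizontal), each with its SE, for the 8 genes that passed in IP (red) and the 24 genes of next smallest p (yellow), with a dotted line where both are equal. Abi3bp lies on the line, Fmr1 lies below it, and all 32 genes have the same sign in both assays.

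Behind these came 12 lower and 12 higher genes of next smallest p, which did not pass by edgeR and are given as values. The lower ones had adjusted p from 0.0831 to 0.176. Pitpnm3, encoding a phosphatidylinositol transfer protein, led them, with 66.8, 74.3 and 82.6 CPM (lowest, median, highest) in wild type and 55.3, 41.0, 57.1, 54.9 and 51.5 CPM in mutants 2, 3, 9, 10 and 11. Its groups did not overlap (log2 -0.51 ± 0.10).

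Signalling and calcium genes were among them. Prkca, the alpha isoform of protein kinase C, had 388.6 CPM in wild type against 298.3 in mutants (log2 -0.38 ± 0.08). Calb1, the calcium buffer calbindin, had 689.4 and 501.1 CPM (-0.46 ± 0.10). Reln, the secreted guidance protein reelin, had 298.3 and 212.8 CPM (-0.49 ± 0.10). Calb1 and Reln overlapped between the groups and Prkca did not. Their input differences were of the same order, at -0.30 ± 0.11 for Prkca, -0.49 ± 0.15 for Calb1 and -0.55 ± 0.12 for Reln. Stxbp6, encoding a SNARE-binding protein, was lower in IP (-0.73 ± 0.15) than in input (-0.21 ± 0.18), a difference of -0.53 ± 0.25 that did not pass. Regulators of transcription in this group were Ncoa6, a coactivator of nuclear receptors (-0.34 ± 0.07), Zfhx3, a homeodomain factor (-0.50 ± 0.11), and Med13l, a subunit of the mediator kinase module (-0.37 ± 0.08). Pdzd2, Arhgap35, Nhsl2 and Kif26b completed it, with -0.67, -0.28, -0.31 and -0.45.

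The 12 higher genes had adjusted p from 0.0831 to 0.271. Gucy1a1, a subunit of the soluble guanylyl cyclase that nitric oxide activates, led them. Wild-type IP held 327.9 CPM at the lowest, 367.0 at the median and 408.0 at the highest, and mutants 2, 3, 9, 10 and 11 held 521.1, 425.2, 462.4, 469.1 and 509.1 CPM. Every mutant was above every wild-type animal, a log2 difference of 0.37 ± 0.07, while input gave 0.03 ± 0.11. The difference between these, 0.33 ± 0.14, did not pass. Gucy1a1 did pass in IP without the 4 animals with cortical markers (0.50, adjusted p = 0.0348 by edgeR) and with DESeq2 on all libraries (adjusted p = 0.00239), and in none of the 11 fits that left out an animal. Fgf13, an intracellular regulator of sodium channels, had 170.8 CPM in wild type against 227.2 in mutants (0.41 ± 0.09).

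Ndufb9, Cox6a1 and Uqcrh, subunits of respiratory complexes I, IV and III, had log2 differences of 0.36 ± 0.08, 0.28 ± 0.07 and 0.35 ± 0.09 in IP. In input they had 0.31 ± 0.09, 0.27 ± 0.09 and 0.31 ± 0.09, close to the IP values. Translation and protein folding were represented by Eif1, the factor of start codon choice (0.26 ± 0.06), Paip2, an inhibitor of the poly(A)-binding protein (0.26 ± 0.07), and Dnajb4, a co-chaperone (0.25 ± 0.06). Acp1, Ftl1, Ccndbp1 and Nsmce4a were at 0.52, 0.44, 0.29 and 0.49.

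**Figure D3:**
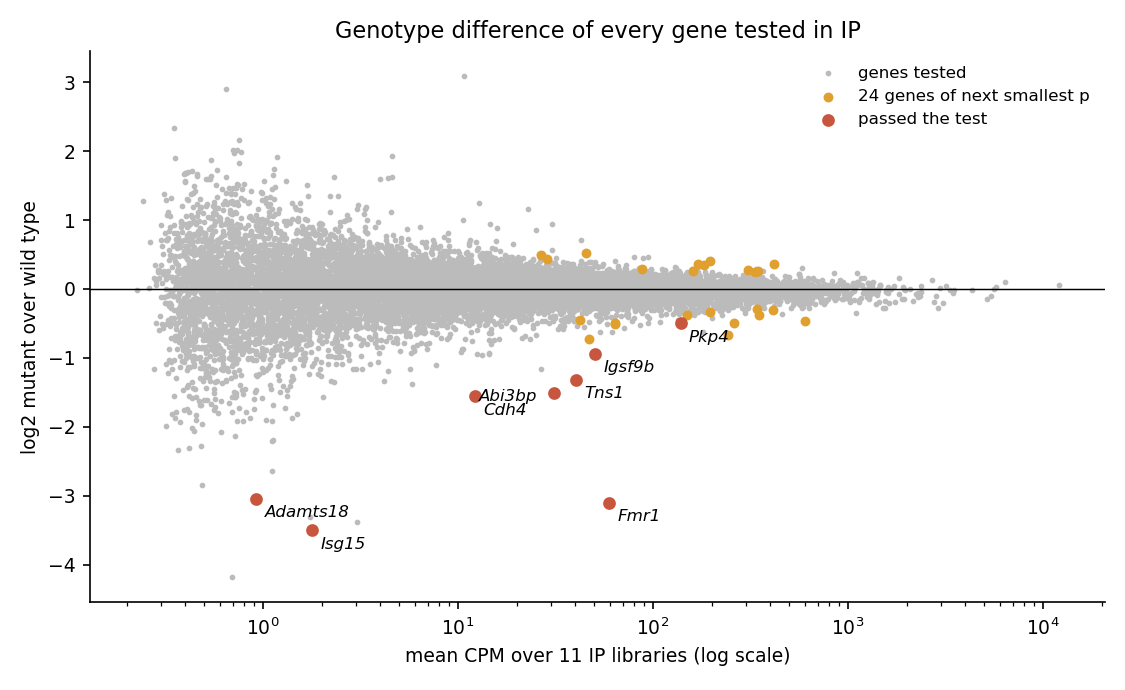
Log2 mutant over wild type of the 14456 genes tested in IP against their mean CPM on a log axis, with the genes that passed in red and the 24 genes of next smallest p in yellow. The cloud narrows from left to right, centred near 0. The 8 genes that passed lie at or beyond its lower edge, where some genes that did not pass lie as low.

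Across all expressed genes the difference was small and its visibility depended on level. Of the genes tested 7122 were below 0 and 7334 above, with a median of 0.00. The SE of the log2 fold change had a median of 0.68 in 1820 genes under 1 CPM, 0.33 in 4381 genes from 1 to 10 CPM, 0.13 in 5939 genes from 10 to 100 CPM, and 0.08 in 2316 genes of 100 CPM and over. Among the last, 2 genes differed by more than 1.5-fold. In that class 194 genes were lower and 82 higher at an unadjusted p under 0.05, and from 10 to 100 CPM there were 278 and 238. In each library the median log2 deviation from a gene's mean was taken for the highest and the lowest quintile of genes by level. Their difference did not separate the genotypes (-0.058 ± 0.220 over wild-type libraries, SD, n = 6; -0.061 ± 0.149 over mutant libraries, SD, n = 5; 2-sided exact permutation p = 0.976).

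In 88 genes (0.609%) all mutant libraries were lower than all wild-type libraries, and in 52 genes (0.36%) all were higher. Of the 88 lower genes 80 had the same sign in input, and 8 were apart there too. Of the 52 higher genes 38 had the same sign in input, and 1 was apart. The matching shares over all tested genes were not counted, and IP and input came from the same animals. Long genes were frequent among the lower ones: 44 lay in the longest quintile of protein-coding genes and 4 in the shortest, against 9 and 10 of the higher genes. Each quintile holds 2498 genes. Genes of the longest were also more abundant, with a median level of 58.0 CPM against 10.04 CPM in the shortest. The part of level in these counts was not tested.

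The median difference was ordered by exon length, the summed length of a gene's annotated exons, though the test over animals that follows did not pass. The 12490 tested protein-coding genes were divided into 5 quintiles of 2498 genes. From the shortest to the longest quintile the median log2 difference in IP was 0.06, 0.02, 0.00, -0.02 and -0.04. The share of genes below 0 was 38.1%, 46.0%, 49.5%, 55.3% and 61.2%. At an unadjusted p under 0.05 the shortest quintile (up to 2678 bases) had 54 lower and 124 higher genes, and the longest (8047 bases and over) 235 lower and 54 higher. Input medians were 0.05, 0.00, -0.01, -0.02 and -0.03, so the ordering was present in the lysate as well. The order was clearest in abundant genes: at 100 CPM and over, 68.0% of 887 genes in the longest quintile and 24.3% of 206 in the shortest were below 0.

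Per animal the length relation overlapped between genotypes. The median deviation of genes in the longest quintile minus that in the shortest was -0.09, -0.02, 0.04, 0.12, -0.02 and 0.21 (log2) in the IP of wild-type animals 1, 4, 12, 13, 14 and 20. In mutants 2, 3, 9, 10 and 11 it was -0.17, -0.11, 0.12, -0.08 and -0.07. Mutant 9 lay among the wild type, also in input. The remaining mutants were all below 0 in IP, as were wild-type 1, 4 and 14. Mutants 10 and 11 lay above wild-type 1 in IP, and mutant 3 (0.02) lay among the wild type in input. Mutant 9 is among the 4 animals with high cortical markers, whose part in this result was not tested. The means were 0.039 ± 0.109 (SD, n = 6) and -0.066 ± 0.110 (SD, n = 5), a difference of -0.105 that did not pass a 2-sided exact permutation test (p = 0.154; 0.231 adjusted over the 3 such tests; smallest possible 0.00216). In input the difference was -0.079 (exact permutation p = 0.154). Without mutant 9 it was -0.149 in IP (exact permutation p = 0.0429) and -0.118 in input (p = 0.0476), unadjusted. Leaving out any other single animal gave exact permutation p from 0.0952 to 0.286 in IP and from 0.0873 to 0.3 in input. Without the 4 animals with cortical markers the difference was -0.181 in IP (exact permutation p = 0.0857) and -0.183 in input (p = 0.0286).

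The most abundant genes of either end show the size of the shift. In the longest quintile Pde10a, the phosphodiesterase of projection neurons, had 5587 CPM in wild type against 5219 in mutants (log2 -0.10 ± 0.07). Ppp3ca, the catalytic subunit of calcineurin, had 5691 and 5820 CPM (0.03 ± 0.06). In the shortest quintile Pcp4, a calmodulin regulator, had 1738 and 1936 CPM (0.16 ± 0.10), and Calm2, a calmodulin gene, 4343 and 4303 (-0.01 ± 0.06). None of these genes passed the test.

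**Figure D4:**
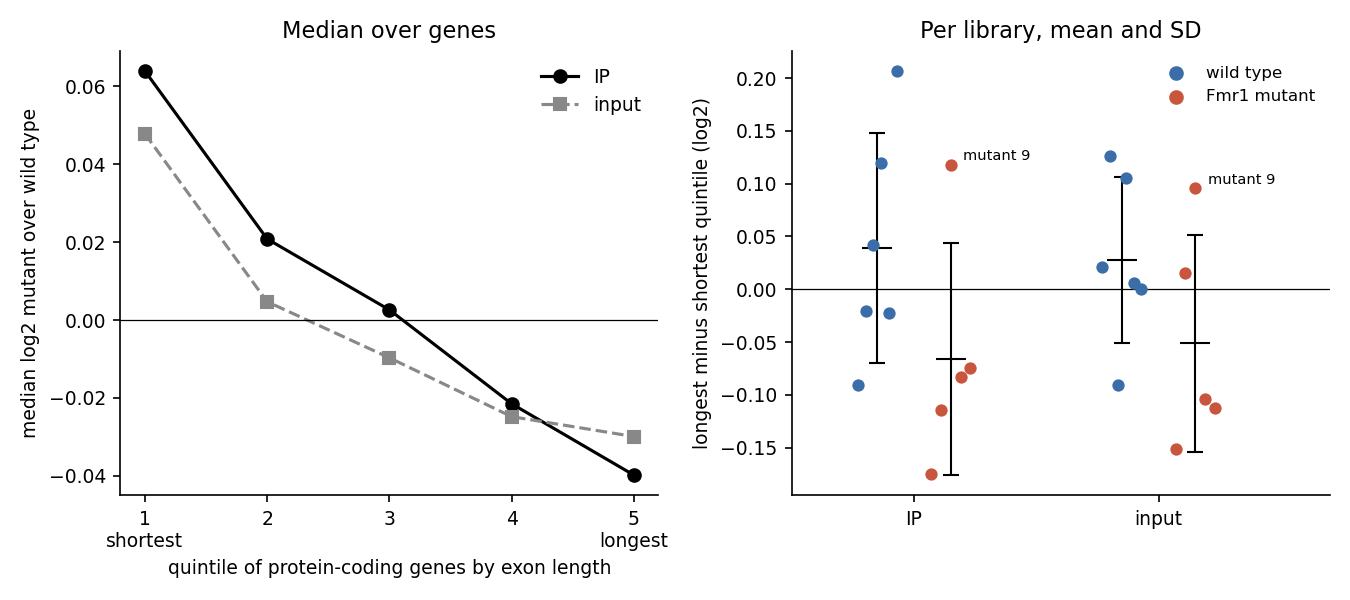
Left, the median log2 mutant over wild type in each quintile of protein-coding genes by exon length, in IP (circles) and input (squares), falling from 0.06 to -0.04 in IP. Right, the longest minus the shortest quintile in each library, with group means and SD: the genotypes overlap, and mutant 9 lies above the other mutants in IP and input.

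The pathway lists were read against the share of all tested genes below 0, which was 49.3%, and the counts at an unadjusted p under 0.05 given above. That share was 61.2% in the longest quintile of protein-coding genes and 38.1% in the shortest. Median exon length was 4288 bases over all genes tested. In postsynaptic scaffolds, chromatin regulators and calcium release channels and pumps it was 9816, 12068 and 12430 bases. For lists not set beside other genes of their quintile below, the part of length was not tested. Lists share members, and the members share libraries. Of the FMRP-bound mRNAs, written from general knowledge of published binding, 206 of 210 were tested and none passed. Below 0 were 175, with a median of -0.12, and at an unadjusted p under 0.05 there were 53 lower (25.7%) and 0 higher. In 9 of them every mutant was below every wild-type library. Over all 14456 genes tested this held in 88 (0.609%), and in 31 of the 2316 genes at 100 CPM and over. Per library the median deviation of these mRNAs was -0.04, -0.01, 0.10, 0.12, 0.05 and 0.10 in wild-type 1, 4, 12, 13, 14 and 20 and -0.17, -0.10, 0.02, -0.02 and -0.04 in mutants 2, 3, 9, 10 and 11. The groups overlapped, with wild-type 1 and 4 and mutants 9 and 10 between them. In input 137 of 206 were below 0, with a median of -0.05.

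FMRP-bound mRNAs are long, so they were set beside other genes within a class of length and level, without matching inside the class. Among genes of the longest quintile at 100 CPM and over, the 115 on the list had a median of -0.12 with 87.8% below 0, and the 772 others had -0.04 with 65.0% below 0. Prkca, Reln and Med13l are on the list, as is Ryr2, the ryanodine receptor that releases calcium from the endoplasmic reticulum. Ryr2 had 109.2, 121.3 and 152.6 CPM (lowest, median, highest) in wild type and 66.4, 90.4 and 109.8 CPM in the mutant, a log2 difference of -0.47 ± 0.11 (adjusted p = 0.188). Of 16 tested calcium release channels and pumps 13 were below 0 (median -0.16), among them Itpr1, the inositol trisphosphate receptor, at -0.27 ± 0.08. This median was -0.31 without the 4 animals.

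Genes of the postsynaptic side leaned the same way without any member passing. Of 23 postsynaptic scaffolds 22 were below 0 (median -0.17), and 7 had an unadjusted p under 0.05. Iqsec1, an exchange factor for Arf GTPases, had 265.4 CPM in wild type against 216.0 in mutants (log2 -0.30 ± 0.07), Dlgap3, a scaffold enriched in striatum, 122.3 and 94.0 (-0.38 ± 0.12), and Shank3 81.2 and 64.4 (-0.34 ± 0.12). All had overlapping groups. Of 16 ionotropic glutamate receptor genes 12 were below 0 (median -0.11), with Grin2a, an NMDA receptor subunit, at -0.29 ± 0.09. Of 14 GABA receptor genes 12 were below 0 (median -0.12). Gabra4, the alpha 4 subunit, had 320.4 and 289.5 CPM without overlap (-0.15 ± 0.06). Over the alternatives the median ran from -0.26 (without the 4 animals) to -0.04 (without mutant 2) for glutamate receptors and from -0.20 (without the 4 animals) to -0.05 (without wild-type 12) for GABA receptors.

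Channel, guidance and adhesion genes had negative medians too. Of 62 potassium channel genes 45 were below 0 (median -0.13) and 8 were lower at an unadjusted p under 0.05, Kcnq3, a subunit of the M-current channel, being at -0.21 ± 0.07. Of 35 voltage-gated calcium and sodium channel genes 26 were below 0 (median -0.11) and 8 lower at that p. Cacna1i, a T-type calcium channel, had 44.8 and 32.6 CPM without overlap (-0.46 ± 0.11). Of 60 guidance genes 44 were below 0 (median -0.18) and 11 lower at that p, with Ntng1, the netrin G1 adhesion protein, at -0.68 ± 0.16 and Dcc, a netrin receptor, at -0.20 ± 0.07. Of 85 cadherins and protocadherins 56 were below 0 (median -0.15) and Cdh4 alone passed. Their median was -0.24 without the 4 animals and -0.06 without wild-type 13, and the libraries overlapped, from -0.24 in wild-type 1 to 0.28 in wild-type 13 and from -0.30 in mutant 2 to 0.12 in mutant 3. Over the alternatives the median ran from -0.26 to -0.10 for guidance genes, from -0.18 to -0.08 for potassium channels and from -0.11 to -0.05 for chromatin regulators. Of 47 chromatin regulators 39 were below 0 (median -0.07). In the longest quintile 83.8% of the 37 members there and 60.8% of the 2461 other genes were below 0. Kmt2d, a histone methyltransferase, and Arid1a, a subunit of a remodelling complex, did not overlap between groups (-0.25 ± 0.08 and -0.22 ± 0.07).

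The mRNAs of short, abundant proteins of the respiratory chain and ribosome leaned upward. Of 77 nuclear-encoded oxidative phosphorylation genes 71 were above 0 (median 0.13), 22 were higher at an unadjusted p under 0.05 (28.6%) and 0 lower, and none passed. Per library their median deviation was 0.08, 0.04, -0.10, -0.18, -0.06 and -0.20 in wild-type 1, 4, 12, 13, 14 and 20 and 0.16, 0.14, -0.12, 0.11 and 0.12 in mutants 2, 3, 9, 10 and 11. Mutant 9 stood on the wild-type side. In the shortest quintile the 58 members there had a median of 0.13 with 6.9% below 0, and the 2440 other genes 0.06 with 38.9% below 0. At 100 CPM and over in that quintile, 34 members had a median of 0.13 with 5.9% below 0. The 172 other genes of that level had 0.06 with 27.9% below 0. In input 11 of 77 were below 0 (median 0.11).

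Of 79 cytosolic ribosomal protein genes 62 were above 0 (median 0.09, and 0.24 in input), and of 77 mitochondrial ribosomal protein genes 62 (median 0.10). Without mutant 9 these medians were 0.17 and 0.14. In the shortest quintile 22.4% of 58 cytosolic members were below 0, against 38.5% of the other genes there. For the 42 mitochondrial members there the shares were 19.0% and 38.4%. Of 35 proteasome subunits 25 were above 0 (median 0.05), and of 64 translation factors 34 (median 0.02, of either sign over the 16 alternatives). The 7 mRNAs encoded by mitochondrial DNA that were tested in IP went the other way there, with 6 below 0 and a median of -0.24. In input 12 were tested, a different set, with 4 below 0 and a median of 0.14. mt-Nd5, a complex I subunit, had 374.9 and 317.6 CPM (-0.24 ± 0.08). Whether the reads of these mitochondrially encoded mRNAs in IP came from tagged ribosomes was not tested. No member of these lists passed.

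**Figure D5:**
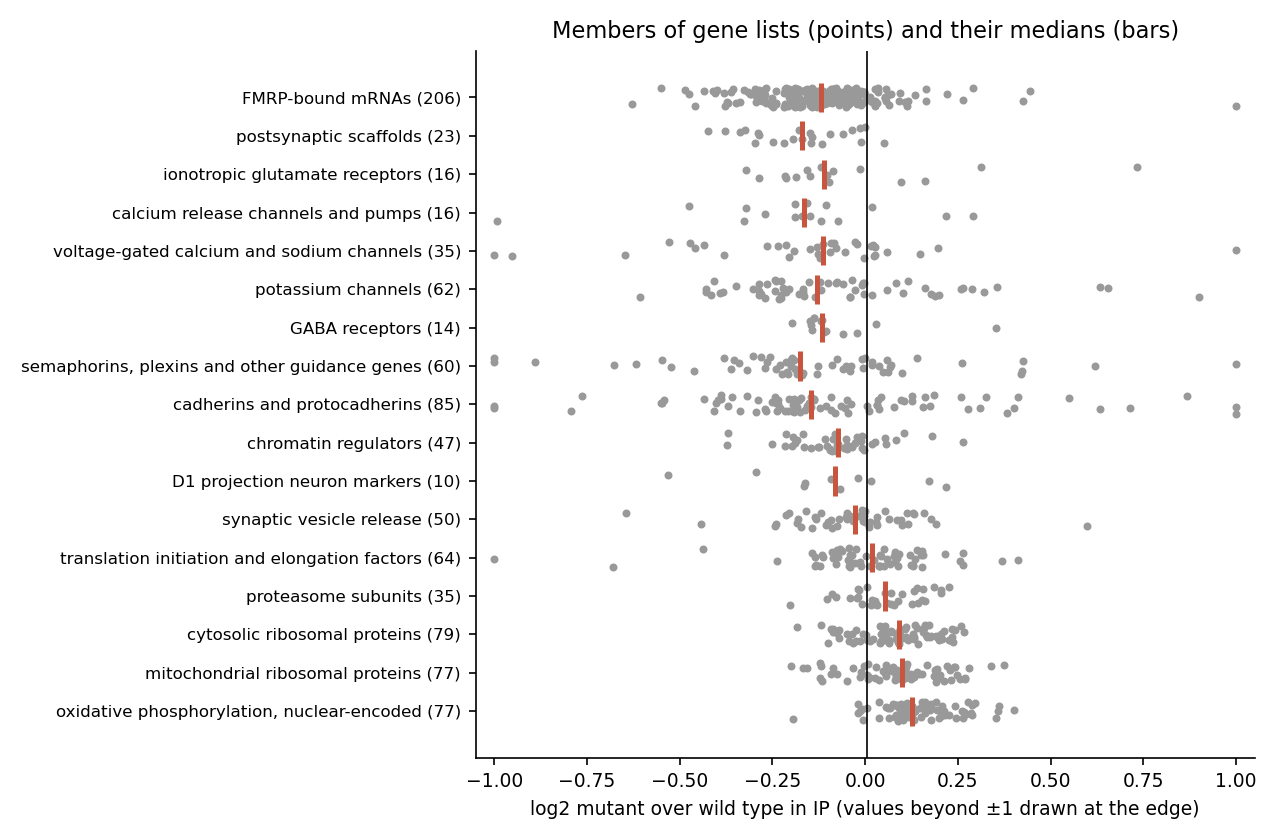
Log2 mutant over wild type in IP of the tested members (grey points) of 17 gene lists with their number in brackets, and the list median (red bar). The vertical line is the median of all genes tested. Medians run from -0.18 for guidance genes to 0.13 for oxidative phosphorylation.

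Genes of D1 identity and signalling were measured in the same way. Of 10 D1 markers 7 were below 0 (median -0.08) and none passed. In input all 10 were below 0 (median -0.27), as were all 16 markers shared by projection neurons (median -0.20), while none of 9 tested cortical markers was (median 0.65). The part of these marker differences in the input values given above was not tested. In IP, Zfp521, a zinc finger factor, had 39.3, 47.6 and 61.0 CPM (lowest, median, highest) in wild type and 26.4, 32.8 and 36.2 CPM in the mutant, without overlap (log2 -0.53 ± 0.12, adjusted p = 0.176). Chrm4, the muscarinic receptor of D1 neurons, had 26.7 and 21.8 CPM (-0.29 ± 0.13). Of 28 dopamine and cAMP signalling genes 18 were below 0 (median -0.04), and Adcy5, the striatal adenylyl cyclase, was at -0.19 ± 0.08. Of 17 RGS proteins, which end G protein signals, 10 were below 0 (median -0.08, and -0.02 without the 4 animals). Rgs14 had 38.6 and 26.6 CPM without overlap (-0.54 ± 0.12, adjusted p = 0.176) and Rgs4 1212 and 956.1 CPM with overlap (-0.34 ± 0.09, adjusted p = 0.271).

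FMRP's own relatives and partners were mixed, with 11 of 22 below 0. Apart from Fmr1 none passed. Cyfip2, an FMRP-binding protein of the WAVE actin complex, had 1836 and 1605 CPM (-0.19 ± 0.06). Ybx1, an RNA-binding protein, had 105.5 and 124.9 CPM, every mutant above every wild-type library (0.24 ± 0.08). Of 27 mTOR pathway genes 16 were below 0 (median -0.04), and Mtor stood at 120.8 and 109.2 CPM (-0.15 ± 0.07). Of 17 immediate early genes 11 were above 0 (median 0.19). This value changed with single animals. The median deviation was -0.93 in mutant 2 and 0.59 in mutant 10, and the list median was 0.02 without mutant 10, 0.03 without the 4 animals and 0.38 without mutant 2. Npas4 had 8.03 CPM in wild type against 18.4 in mutants with overlap (1.24 ± 0.60, adjusted p = 0.693).

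The authors' deposited table of this comparison called 81 genes at an adjusted p of 0.05, of which 70 were lower and 11 higher in the mutant. All 81 had the same sign and an unadjusted p under 0.05 in the edgeR fit, and 6 passed there: Fmr1, Abi3bp, Tns1, Igsf9b, Cdh4 and Pkp4. DESeq2 run on the same counts called 75 genes (65 lower, 10 higher), and 72 of them are among the 81 of the authors' deposited table, which is 88.9% of that list and 96% of these. In the authors' deposited table, 38 of the 81 genes lie in the longest quintile of protein-coding genes and 5 in the shortest, and 7 are on the FMRP-bound list. Each quintile holds 2498 of the 12490 tested protein-coding genes, and that list 206 of the 14456 genes tested. Genes of the longest quintile were also more abundant, and the part of level in these counts was not tested. Which genes pass thus depended on the tool, while the leading genes were shared.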

How the data were processed

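For each of the 22 libraries the authors deposited raw read counts by gene symbol. The submitters' processing notes name STAR, featureCounts and the mm10 build, without versions. The kit did not mark strand, per the labels' protocols, so antisense partners cannot be told apart. The authors also deposited tables of log2 fold changes with p-values and adjusted p-values (DESeq2, per the submitters' processing notes), and the IP table was used only where named. All 55341 symbols were found in GENCODE vM21, which gave positions and exon lengths. Genotypes were compared within IP and within input with edgeR 4.0.16 in R 4.3.3 (TMM, filterByExpr, robust quasi-likelihood test, Benjamini-Hochberg adjustment at 0.05), and the IP and input changes by an interaction over 22 libraries. The fit was tested on simulated counts with 200 genes changed. It called 62.2% of those changed 2-fold and 44.2% of those changed 1.5-fold, so genes that did not pass may still differ. Per-library log2 CPM used a prior count of 2. Alternatives used DESeq2 1.42.0, limma 3.58.1, other scaling and filters, thinning and left-out animals. The text names every gene that passed and the 12 genes of next smallest p per direction at 10 CPM or more. It also names up to 4 members of smallest p per list, and some of the 4 most abundant genes of the longest and shortest quintile. IP totals of 9375611 to 82376192 and input totals of 25164548 to 43276230 counts set the precision. The genes and 48 lists were chosen with earlier results of these data known. The labels tie each IP to an input of the same animal. They do not pair animals across genotypes.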

Additional observations from a re-analysis of the deposited data

Results flagged for a closer look

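In 84 groups of 5 or 6 libraries, 7 held a library far from the rest, where chance gives about 1 in 20. Igsf9b in mutant IP was highest in mutant 10 (42.0 CPM, next 33.6), which is still below every wild-type library. Stxbp6 in wild-type IP was highest in animal 4 (74.1 CPM, next 58.5), and Pdzd2 in wild-type IP was highest in animal 20 (416 CPM, next 293). The IP library of wild-type animal 1 held 82376192 counts, and the next held 30007408. Mutant 9 was lowest in the median log2 deviation of oxidative phosphorylation genes (-0.116, next 0.105), of cytosolic ribosomal protein genes (-0.34, next 0.07) and of mitochondrial ribosomal protein genes (-0.135, next 0.069). Mutant 9 is among the 4 animals with cortical markers, and the part of those markers in these values was not tested.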

How the results depend on the processing

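The count of 8 genes in IP became 75 with DESeq2 and 4 with limma-voom, and 4 to 8 when each animal was left out in turn. The other scaling, the filters, thinning, the cortical covariate and leaving out animals 1, 3, 9 and 12 gave 8 to 10. Without those 4 animals 5 of the 8 were shared, Cdh4, Isg15 and Adamts18 no longer passed, and 1 gene was higher. In input the count of 3 became 5 without a filter, 28 with DESeq2, 7 without the 4 animals, and 2 to 7 when each animal was left out. The interaction had 0 genes, 0 with the animal as a replicate block, and 0 to 2 when each animal was left out, 2 of them without animal 1 or animal 3. Animals are not paired across genotypes, so no block applies within IP.

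The length difference in IP was -0.145 by longest coding length, an alternative chosen after seeing the data (exact permutation p = 0.0498), and -0.149 to -0.074 when each animal was left out. In input it was -0.183 without the 4 animals and -0.118 to -0.052 when each was left out. The planned change to exon length was not run separately, since exon length was already in use. The level difference of -0.003 turned to 0.0047 without the 4 animals and ran from -0.040 to 0.071 when each was left out. Without the 4 animals 687 genes lay below and 635 above without overlap, with fewer libraries per group. Of the log2 values of single genes under alternatives 3302 kept their side of the threshold or moved less than the spread, 46 no longer passed, 42 newly passed, 49 moved, and none changed sign as a called value. Of list medians 762 moved less than the spread and 6 more. The causes were not tested. Genes under 1 CPM had a median SE of 0.68, so smaller changes there were not detectable.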
